A study of Mus musculus with 19 samples.

Results

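The genes described are 35 components of the machinery that loads synaptic vesicles with transmitter, docks and fuses them with the presynaptic membrane and takes them back up. They were picked by gene symbol, and all 35 were found among the 18639 gene symbols of the expression table. Their levels were followed in 19 RNA sequencing libraries of mouse cochlea, the spiral organ of hearing, to see which of them were higher in the sorted macrophage fraction and which were not.

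Every mouse was of the genotype CX3CR1 GFP/+, in which 1 copy of a chemokine receptor gene of macrophages and microglia carries green fluorescent protein (GFP). All groups, controls included, therefore carry only 1 intact copy of Cx3cr1. Dissociated tissue was sorted into GFP-positive cells, labelled macrophage, and GFP-negative cells, labelled nonmacrophage. Whole cochlea gave 4 old GFP-positive, 2 young GFP-positive, 4 old GFP-negative and 4 young GFP-negative libraries, with young mice aged 1.5 months and old mice 12 to 14 months. Young auditory nerve and young lateral wall each gave 1 library of either sort, and 1 young whole cochlea is labelled unsorted. Each isolate came from a single mouse. The sort separates cells by GFP alone, and no label names a second marker or a count of cells.

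Release of transmitter at a synapse rests on SNARE proteins of the vesicle and of the plasma membrane, which zip together and pull the membranes into contact. Calcium sensors of the synaptotagmin family and complexins set the timing, while active zone proteins such as Rim, Bassoon, Piccolo and Munc13 hold vesicles at the release site and prime them. Most of these genes are known as neuronal; in the cochlea the neurons of the spiral ganglion express many of them, and hair cells release glutamate with a partly different set. Macrophages are not known for this machinery and use widely expressed SNAREs for their own secretion.

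Of the 35 genes, 20 were higher in the GFP-positive libraries over both ages, 2 were lower and 13 did not pass the test. Over all 18441 genes tested 13.6% were higher and 25.7% were lower. The median difference of the 35 genes was 2.43 on the log2 scale, against -0.50 for all genes tested. In 17 of the 20 genes every one of the 6 GFP-positive libraries lay above every one of the 8 GFP-negative libraries, an arrangement held by 5.47% of all genes, and the exceptions were Syt11, Slc17a7 and Rab3c. The genes were spread unevenly over the roles. All 4 genes of vesicle retrieval, both SNARE recycling genes and both vesicular glutamate transporters were higher. So were 4 of 6 vesicle membrane proteins, 3 of 4 synapsin and Rab3 genes, 2 of 4 SNAREs and 1 of 2 complexins. Of 5 genes listed as calcium sensors 2 were higher, Syt2 and Syt11, and Syt11 does not act as a fast calcium sensor. None of the 6 active zone and priming genes was higher, and 1 of them was lower. Differences are from limma, fitted to log2 of normalized reads plus 1 with p-values adjusted over all genes, where normalized reads are read counts divided by a library factor. The folds of weakly expressed genes depend on the 1 pseudo-read added.

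**Figure D1:**
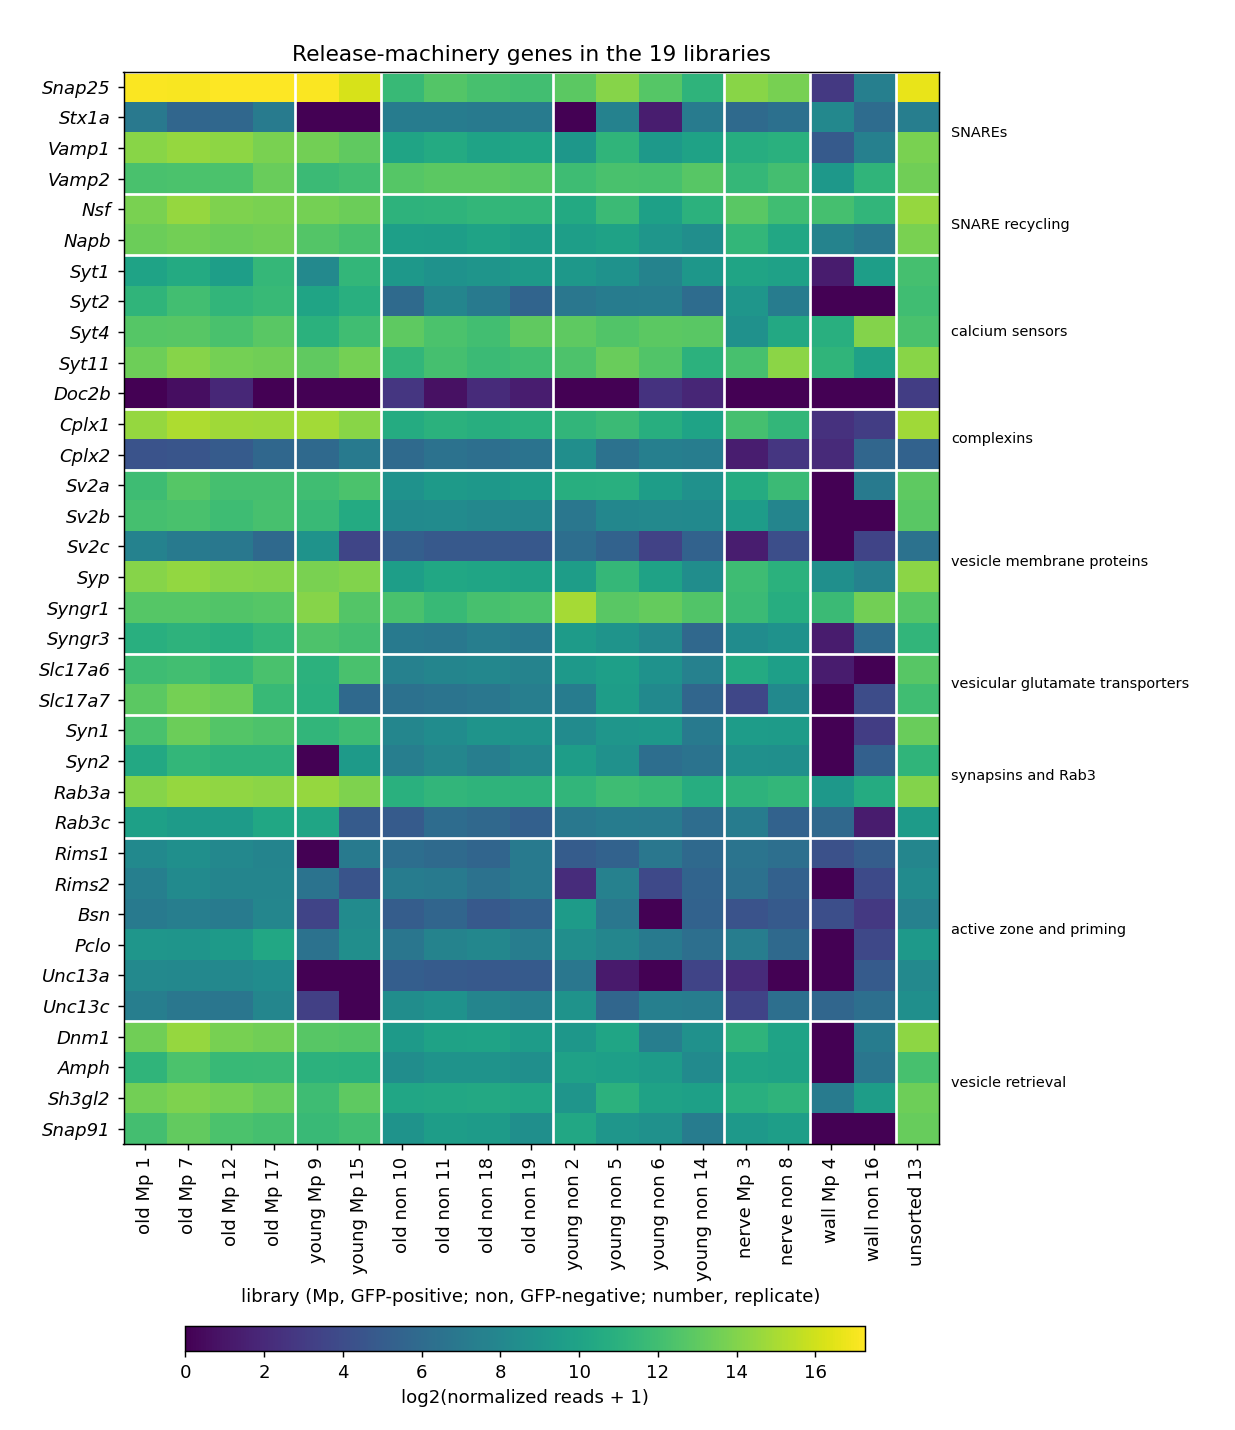
Level of the 35 release genes (rows, ordered by role) in the 19 libraries (columns), as log2(normalized reads + 1), with white lines between roles and between groups. The GFP-positive whole-cochlea columns and the unsorted column are bright for most genes, the lateral wall GFP-positive column is dark, and the active zone rows are dim in every column.

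The libraries held 20.6 to 71.6 M reads (M, mega). Depth followed age: the old libraries held 50.6 to 71.6 M reads and the young sorted whole-cochlea libraries 24.9 to 35.1 M, except GFP-negative replicate 14 with 60.2 M. The young GFP-positive libraries stood apart, with reads in 11652 genes (replicate 9) and 13532 genes (replicate 15), against 14399 to 17708 in the other sorted whole-cochlea libraries. Cx3cr1 followed the sort, at 6383 to 22528 normalized reads in GFP-positive and 1.63 to 102 in GFP-negative whole-cochlea libraries. All 18 macrophage markers were higher in the GFP-positive libraries, and so were 15 of 20 neuron markers, with 0 lower. The summed neuron list held 294823 to 436278 normalized reads in old and 128139 to 316137 in young GFP-positive libraries, against 16441 to 22834 and 13525 to 53538 in the GFP-negative ones, and 0 of its 20 genes were at 0 in any old library. Of the other lists, 15 of 16 Schwann cell and glia, 11 of 14 supporting cell, 9 of 10 fibroblast and 10 of 10 endothelial markers were lower in the GFP-positive libraries, while 2 of 14 hair cell markers were higher and 7 lower. The neuron markers thus moved with the release genes, and their part in the results below was not tested. In bulk samples such as these, more cells of a type and more RNA per cell cannot be told apart.

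Promoter sequence is shown for genes whose upstream bases matched a motif linked to neuronal expression, beside Syn2, a paralog that did not pass over both ages. Of the 35 genes 29 matched the RefSeq promoter table (GRCm38.p6), with 37 windows from 250 bases before to 50 bases after the start. Both strands were searched for TTCAGCACC, part of the element bound by REST, a repressor of neuronal genes, and for TGACGTCA, the cyclic AMP response element, which do not overlap each other. The first was in 2 of 37 windows (Syn1 and Unc13a) and in 0.371% of 32851 windows of the same length over all genes. The second was in 2 of 37 windows (Syn1 and Sh3gl2) and in 1.79% of all windows. Capitals mark the matches, and the stretches are upstream of Syn1 (chrX:20921005-20921168, minus strand), upstream of Syn2 (chr6:115134652-115134901, plus strand) and around the match of Sh3gl2 (chr4:85205408-85205437, plus strand).
Syn1: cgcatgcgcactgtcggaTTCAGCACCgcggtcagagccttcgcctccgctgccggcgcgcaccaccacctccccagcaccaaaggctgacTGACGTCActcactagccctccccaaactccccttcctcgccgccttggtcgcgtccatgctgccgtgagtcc
Syn2: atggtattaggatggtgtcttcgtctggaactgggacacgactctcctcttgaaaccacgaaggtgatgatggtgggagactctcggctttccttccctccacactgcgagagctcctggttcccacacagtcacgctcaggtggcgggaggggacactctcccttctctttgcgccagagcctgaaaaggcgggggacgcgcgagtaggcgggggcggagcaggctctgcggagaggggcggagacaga
Sh3gl2: atcacccgcccTGACGTCAgggtgtctctc
The Syn1 matches lie at -232 to -224 and -159 to -152 from the RefSeq start, and that of Sh3gl2 at -37 to -30. In the GENCODE M21 annotation the Sh3gl2 stretch lies inside the gene (chr4:85205126-85639195), so only bases around its match are printed. In Unc13a the match lies at 23 to 31 after the start, on the opposite strand. Of the genes with a match, Syn1 and Sh3gl2 were higher in the GFP-positive libraries and Unc13a did not pass. Syn2, with neither run of letters in its window, also did not pass. The other genes that followed the sort had no match or no window in the table, and the matches are given as a description.

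The SNARE genes split into 2 pairs. Snap25 (chr2:136713453-136782428, mm10, GENCODE M21), the plasma membrane SNARE that gives a pair of helices to the complex, was the most abundant of the 35 per kilobase of exon in both GFP-positive groups. It stood at 143367, 140741, 152752 and 155783 normalized reads in the old GFP-positive libraries and at 144553 and 74052 in the young ones. The old GFP-negative libraries held 3190, 6325, 4746 and 4252 and the young ones 7576, 17714, 6605 and 2339, so the groups lay far apart. Snap25 was 22.5-fold higher over both ages (log2 4.49 ± 0.37 SE, limma adjusted p = 9.25e-07).

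Vamp1 (chr6:125215551-125245964), a vesicle SNARE of fast and peripheral synapses, held 18188, 23102, 20347 and 14074 normalized reads in old and 12408 and 8230 in young GFP-positive libraries. In GFP-negative libraries it held 1035 to 1500 (old) and 569 to 2555 (young). The difference was 12.9-fold (log2 3.68 ± 0.31 SE, limma adjusted p = 1.19e-06). Its paralog Vamp2 (chr11:69088490-69092384), the main vesicle SNARE of the brain, did not follow the sort. It held 5014, 5352, 5265 and 10308 normalized reads in old and 3428 and 4266 in young GFP-positive libraries, against 6732, 7672, 7595 and 6631 in old and 3837, 5023, 4851 and 7049 in young GFP-negative ones. The groups overlapped, and the log2 difference was -0.31 (95% interval -0.73 to 0.12, limma adjusted p = 0.22). Per kilobase of exon Vamp2 ranked first among the 35 in the old GFP-negative libraries and eleventh in the old GFP-positive ones.

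Stx1a, the syntaxin of the plasma membrane, was low. Its highest level was 270 normalized reads, in the lateral wall GFP-positive library, against 67.3 in the lateral wall GFP-negative one. In whole cochlea Stx1a held 126, 51.2, 52.1 and 143 normalized reads in old GFP-positive libraries and was at 0 in both young ones. The old GFP-negative libraries held 129 to 152 and the young ones 0, 203, 1.63 and 143. Its log2 sort difference was -2.41 (95% interval -4.87 to 0.05, limma adjusted p = 0.11), and it passed on the recovered reads with edgeR (log2 -5.24, adjusted p = 0.022) and DESeq2 (log2 -4.50, adjusted p = 0.00055) and without young GFP-negative replicate 2 (limma, log2 -3.09, adjusted p = 0.019).

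Both genes that take SNARE complexes apart for reuse were higher. Nsf, the ATPase, held 10577 to 23491 normalized reads in the 6 GFP-positive and 889 to 3448 in the 8 GFP-negative libraries (6.65-fold). Napb, the neuronal form of its adaptor, held 10663, 12456, 10523 and 11898 normalized reads in old and 6224 and 4775 in young GFP-positive libraries, with 367 to 1044 in the GFP-negative ones. It was 10.7-fold higher (log2 3.42 ± 0.22 SE, limma adjusted p = 1.24e-07), among the smallest adjusted p-values of the 35.

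Among the calcium sensors Syt2 (chr1:134646677-134762593), the fast sensor of many hindbrain and peripheral synapses, followed the sort most. It held 2526, 4153, 2657 and 3092 normalized reads in old and 1069 and 1920 in young GFP-positive libraries. The GFP-negative libraries held 47.2 to 229 (old) and 66.3 to 158 (young), and the difference was 19.5-fold (log2 4.29 ± 0.42 SE, limma adjusted p = 3.91e-06). The call was lost with library quality weights (adjusted p = 0.076).

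Syt1, the fast sensor of most forebrain synapses, did not pass (log2 1.19, 95% interval 0.12 to 2.27, limma adjusted p = 0.072). The old GFP-positive libraries held 1025, 1477, 819 and 2864 normalized reads, all above the 447 to 659 of the old GFP-negative ones, but young GFP-positive replicate 9 held 274 and replicate 15 held 2753. Without replicate 9 Syt1 passed (limma, log2 2.02, adjusted p = 0.00081), as it did with quantile normalization, edgeR and DESeq2.

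Syt11 and Syt4 are synaptotagmins that do not act as fast calcium sensors and are also found outside synapses. Syt11 was 2.71-fold higher over both ages (log2 1.44 ± 0.30 SE, limma adjusted p = 0.0021). It held 11072 to 18077 normalized reads in old GFP-positive and 2615 to 4657 in old GFP-negative libraries, but the young groups overlapped, at 8329 and 12983 against 2195 to 9965.

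Syt4 was 1 of the 2 genes called lower (log2 -0.65 ± 0.21 SE, limma adjusted p = 0.025). The old groups overlapped fully, at 6799, 7056, 4951 and 7187 normalized reads in GFP-positive and 7960, 5275, 4257 and 8485 in GFP-negative libraries. The young GFP-positive libraries, at 2110 and 3934, lay below all 4 young GFP-negative ones, at 6050 to 7901. In the young cochlea alone the log2 difference was -1.34 (limma adjusted p = 0.0068). Over both ages the call was lost without young GFP-positive replicate 9 (adjusted p = 0.14), old GFP-positive replicate 12 (0.051) or old GFP-negative replicate 10 (0.051), and with no variance trend or library quality weights. Doc2b, a sensor linked to spontaneous release, was at most 7.65 normalized reads in any library and had no usable fold.

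The complexins, which clamp and activate the SNARE complex, went separate ways. Cplx1 (chr5:108518554-108550024) held 23412, 36176, 28416 and 26803 normalized reads in old and 29189 and 18540 in young GFP-positive libraries, against 1533 to 2096 in old and 1013 to 3409 in young GFP-negative ones. It was 13.3-fold higher (log2 3.74 ± 0.25 SE, limma adjusted p = 1.96e-07) and ranked second per kilobase in both GFP-positive groups. Cplx2 stayed low, at 19.9, 22.3, 30.4 and 54.3 normalized reads in old GFP-positive libraries, all under the 62.7 to 93.8 of the old GFP-negative ones. Its log2 sort difference was -1.19 (95% interval -2.21 to -0.17, limma adjusted p = 0.062). It passed as lower with DESeq2 (adjusted p = 0.0064) and under several other settings, without old GFP-positive replicate 17 or young GFP-positive replicate 15 among them.

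Of the vesicle membrane proteins, Syp (synaptophysin, chrX:7638471-7653256) held 17918, 22415, 18012 and 16772 normalized reads in old and 13986 and 16064 in young GFP-positive libraries. The GFP-negative libraries held 800 to 1227 (old) and 357 to 2866 (young), which made Syp 17.1-fold higher (log2 4.09 ± 0.36 SE, limma adjusted p = 1.75e-06). The transporter-like vesicle glycoproteins Sv2a and Sv2b were higher by 5.94-fold and 12.6-fold. Sv2b held 3862 to 5054 normalized reads in old and 1509 and 3244 in young GFP-positive libraries, against 116 to 316 in the GFP-negative ones. Sv2c did not pass with limma (log2 1.55, 95% interval -0.13 to 3.23, adjusted p = 0.13), with 462 and 11.3 normalized reads in the young GFP-positive libraries. It passed with edgeR, DESeq2 and quantile normalization and without replicate 15 (limma, log2 2.86, adjusted p = 0.0013).

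The synaptogyrins, small relatives of synaptophysin, differed from each other. Syngr3 held 1924, 2221, 1885 and 2771 normalized reads in old and 5405 and 4462 in young GFP-positive libraries, with 120 to 168 in old and 56.7 to 715 in young GFP-negative ones (16.9-fold, log2 4.08 ± 0.48 SE, limma adjusted p = 2.26e-05). Syngr1 held 6748, 6674, 6169 and 6522 in old and 17737 and 6350 in young GFP-positive libraries. The GFP-negative libraries held 3104 to 5305 (old) and 31418, 7470, 9344 and 6020 (young), and the log2 difference was 0.26 (95% interval -0.51 to 1.03, limma adjusted p = 0.57). Per kilobase, Syngr1 ranked first among the 35 in the young GFP-negative libraries.

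The vesicular glutamate transporters load vesicles with glutamate, and both were higher in GFP-positive libraries over both ages. Slc17a6 held 3756, 4242, 3017 and 4958 normalized reads in old and 2177 and 4990 in young GFP-positive libraries, against 192 to 256 in old and 195 to 866 in young GFP-negative ones. It was 11.2-fold higher (log2 3.49 ± 0.33 SE, limma adjusted p = 3.67e-06). Slc17a7 held 7601, 12922, 10564 and 3218 in old GFP-positive and 84.3 to 165 in old GFP-negative libraries, a log2 difference of 6.08 (limma adjusted p = 0.001). In young cochlea it held 2003 in GFP-positive replicate 9 and 57.6 in replicate 15, against 50.8 to 774 in GFP-negative libraries, and the log2 difference was 0.75 (limma adjusted p = 0.68). Without replicate 15 the young difference passed (log2 3.29, limma adjusted p = 0.023). Over both ages the call was lost with library quality weights (log2 3.34, adjusted p = 0.099). The transporter of inner hair cells, Slc17a8, which is outside the 35, was lower in GFP-positive libraries (log2 -3.54 ± 0.73 SE, limma adjusted p = 0.002), with 0 to 10.4 normalized reads there and 16.6 to 99.5 in GFP-negative ones.

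Syn1, a synapsin that tethers vesicles in the reserve pool and whose upstream bases are printed above, held 5040, 10625, 6475 and 5552 normalized reads in old and 2629 and 3746 in young GFP-positive libraries. The GFP-negative libraries held 240 to 494 (old) and 139 to 599 (young), and Syn1 was 12.7-fold higher (log2 3.67 ± 0.35 SE, limma adjusted p = 3.42e-06). Syn2 was high in the old GFP-positive libraries too, at 1350, 2686, 2285 and 2239 against 165 to 248 in old GFP-negative ones. In young GFP-positive libraries it was at 0 in replicate 9 and at 663 in replicate 15, against 75.1 to 791 in the GFP-negative ones. Its log2 sort difference of 0.12 (95% interval -2.38 to 2.62, limma adjusted p = 0.94) rested on those 2 libraries. It was 2.46 without replicate 9 (limma adjusted p = 0.0045) and -2.23 without replicate 15 (0.0067).

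Rab3a, the small GTPase of synaptic vesicles, had a narrow spread. It held 17734, 23170, 21187 and 19446 normalized reads in old and 23856 and 15386 in young GFP-positive libraries, against 1682 to 3849 in the 8 GFP-negative ones. The difference was 7.98-fold (log2 3.00 ± 0.19 SE, limma adjusted p = 1.22e-07). Rab3c was 5.40-fold higher over both ages (limma adjusted p = 0.013). Its young GFP-positive libraries held 1139 and 29.4, and the young log2 difference was -1.96 without replicate 9 and 3.27 without replicate 15.

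The active zone and priming genes were at low levels in every group. In old GFP-positive libraries they had means of 10.8 to 39.4 normalized reads per kilobase of exon, against 21820 for Snap25. Rims1 and Rims2 tether vesicles and calcium channels, Bsn and Pclo are giant scaffolds, and Unc13a and Unc13c prime vesicles. In the old cochlea Rims1, Rims2, Bsn, Pclo and Unc13a each had all 4 GFP-positive libraries above all 4 GFP-negative ones, which held for 29 of the 35 genes and for 23.3% of all genes. Only Pclo passed the test there, with 534, 506, 673 and 1270 normalized reads against 109, 208, 247 and 159 (log2 2.00, limma adjusted p = 0.04). That call was lost without any 1 of the 8 old libraries (adjusted p = 0.063 to 0.12).

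In the young GFP-positive libraries these genes scattered. Bsn held 10.5 in replicate 9 and 313 in replicate 15, Rims1 0 and 132, and Rims2 93 and 21.4 normalized reads. Over both ages Rims1 had a log2 difference of -0.17 (limma adjusted p = 0.89), which was 1.59 without replicate 9 (0.017) and -1.94 without replicate 15 (0.0053). Unc13a held 282, 265, 263 and 337 normalized reads in old GFP-positive and 27.8 to 35.1 in old GFP-negative libraries. It was at 0 in both young GFP-positive libraries, where 3 reads would be 5.27 and 3.39 normalized reads, and at 116, 1.36, 0 and 10.7 in the young GFP-negative ones.

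Unc13c (chr9:73479422-73968966) had the lowest sort difference of the 35 over both ages. It held 163, 112, 109 and 237 normalized reads in old GFP-positive libraries, overlapping the 351, 438, 229 and 180 of the old GFP-negative ones. In the young cochlea it held 8.78 and 0 in GFP-positive libraries, below the 468, 51.8, 173 and 160 of the GFP-negative ones. Over both ages the log2 difference was -3.32 ± 0.64 SE (limma adjusted p = 0.0011), and in young cochlea it was -5.70 (0.00069). The call over both ages was lost with quantile normalization (log2 -1.68, adjusted p = 0.14) and with library quality weights (0.12).

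All 4 retrieval genes, which act when vesicle membrane is taken back from the surface, were higher with groups that did not overlap. Dnm1, the neuronal dynamin that cuts vesicles free, held 11890, 23331, 13421 and 11899 normalized reads in old and 7109 and 6398 in young GFP-positive libraries, against 163 to 1122 in the GFP-negative ones. The difference was 15.9-fold (log2 3.99 ± 0.36 SE, limma adjusted p = 2.23e-06). Sh3gl2 (endophilin A1, a membrane-bending protein) was 7.38-fold higher, Snap91 (the clathrin adaptor AP180) 8.84-fold and Amph (amphiphysin) 5.15-fold. Sh3gl2 held 9527 to 15100 normalized reads in old and 3769 and 8029 in young GFP-positive libraries, with 498 to 2197 in the GFP-negative ones.

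**Figure D2:**
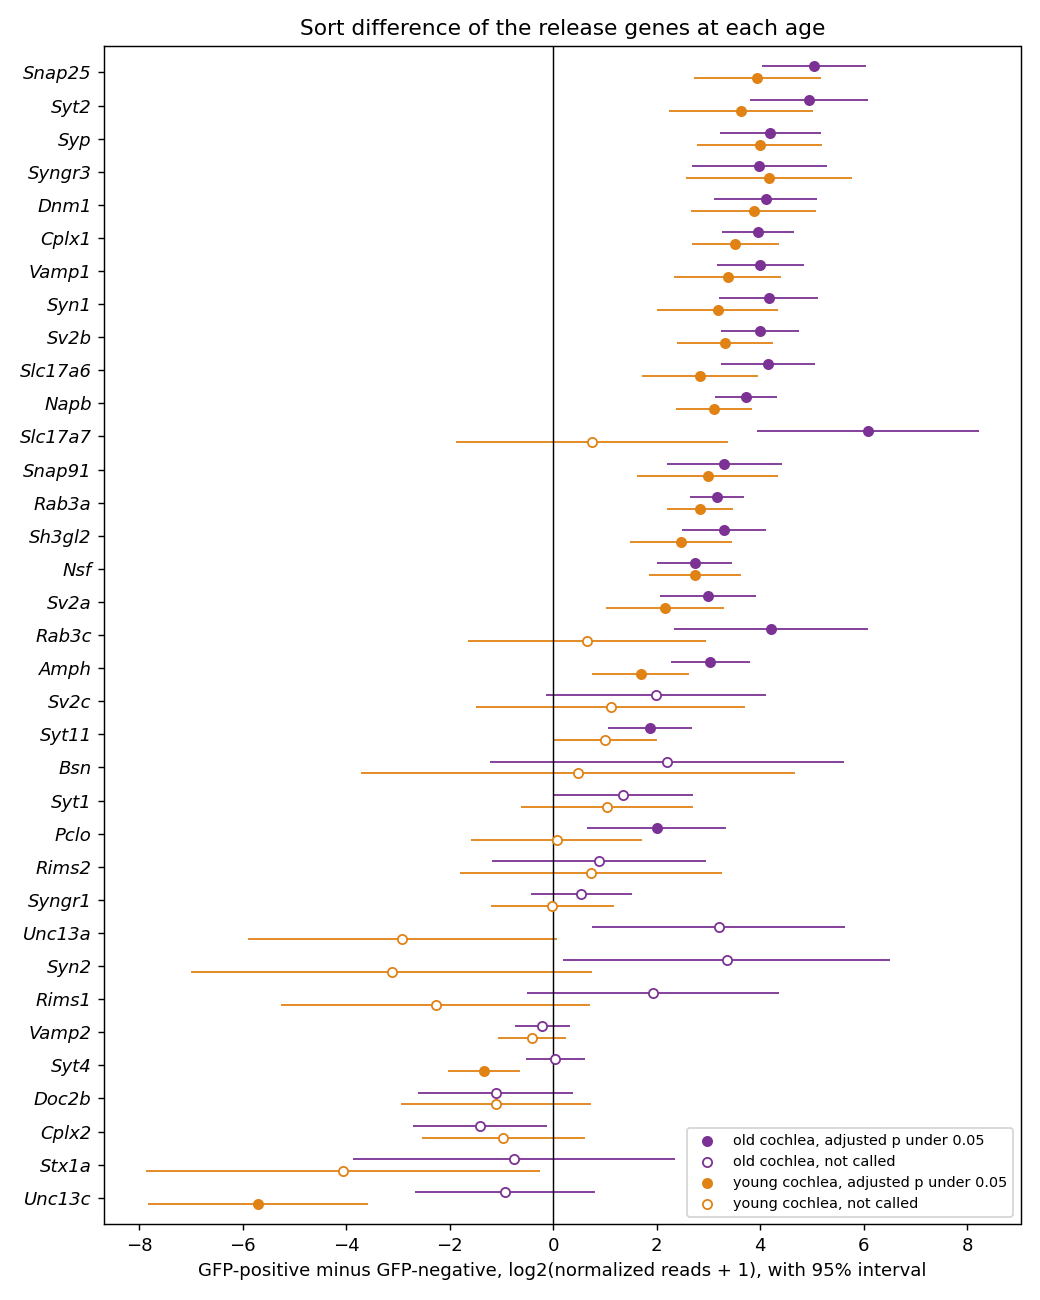
Difference between GFP-positive and GFP-negative whole-cochlea libraries for each gene, in log2(normalized reads + 1) with 95% intervals, for old (4 against 4 libraries, purple) and young cochlea (2 against 4, orange), ordered by the difference over both ages. Filled points passed an adjusted p of 0.05, which 21 genes did upwards in old and 17 in young cochlea. Bsn has the widest interval at both ages.

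The same test within each age gave 21 of 35 genes higher and 0 lower in the old cochlea, against 9.25% and 9.36% of all genes. At an unadjusted p under 0.05 limma counted 1 gene lower there, edgeR called 0 and DESeq2 called 1. When only the old groups were fitted, 29 of the 35 genes were higher and 2 lower, beside 4546 higher and 6108 lower of 18272 genes. In the young cochlea 17 genes were higher and 2 lower, against 9.18% and 22.3% of all genes. The young groups did not overlap for 17 genes that were higher (10.5% of all genes) and 2 that were lower (18.6%). All 20 genes called over both ages were called in old cochlea, with Pclo as the addition, and 17 of them were called in young cochlea as well, the exceptions being Syt11, Slc17a7 and Rab3c. The young count of genes that were higher was 0 with library quality weights and 11 when only the young groups were fitted. The 20 genes called over both ages were all called again with each of the 14 libraries left out, with quantile normalization, with a common total, with edgeR, with DESeq2 and with reads thinned to 20 M. With library quality weights 16 of the 20 were called, without Syt2, Syt11, Slc17a7 and Rab3c. When the auditory nerve and lateral wall libraries were pooled with the young groups, 7 of the 20 were called.

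Across the 14 sorted whole-cochlea libraries, the 19 genes that followed the sort beside Snap25 had a Pearson correlation with Snap25 of 0.81 to 0.99 on the log2 scale. Rab3a and Cplx1 (0.99 each) and Syp (0.98) were closest. The 13 genes that did not pass had correlations of -0.64 to 0.66. The libraries share the sort and differ in depth, and the correlations describe the same differences as the test.

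Ratios between paralogs within a library, taken of (normalized reads + 1), hardly depend on the library factor where both genes lie well above the 1 added. These pairs were chosen after the values were seen and carry no test. The ratio of Vamp1 to Vamp2 was 1.37 to 4.32 in the 6 GFP-positive libraries and 0.132 to 0.509 in the 8 GFP-negative ones. That of Cplx1 to Cplx2 was 138 to 1552 against 6.45 to 37.0. The ratio of Syngr3 to Syngr1 was 0.285 to 0.703 against 0.00958 to 0.0658. Vamp1, Cplx1 and Syngr3 thus took a larger share of their pairs in each of the 6 whole-cochlea GFP-positive libraries. The single tissue libraries did not all share this order. In the GFP-positive and GFP-negative libraries of auditory nerve, Vamp1 to Vamp2 was 0.607 and 0.452, Cplx1 to Cplx2 1700 and 412, and Syngr3 to Syngr1 0.0950 and 0.255. In those of lateral wall, the ratios were 0.0506 and 0.0737, 1.38 and 0.168, and 0.000728 and 0.00567. Some of these single-library ratios rest on few reads. Cplx2 had 1 and 4 reads in the auditory nerve libraries and 2 and 33 in the lateral wall ones, GFP-positive first. In lateral wall Cplx1 had 3 and 5 reads and Syngr3 had 1 and 44.

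Against widely expressed relatives the whole-cochlea sorts were also separate. Snap25 to Snap23 was 9.15 to 94.6 in GFP-positive and 1.49 to 8.36 in GFP-negative libraries. Napb to Napa was 0.348 to 1.13 against 0.0494 to 0.149, and Dnm1 to Dnm2 was 1.07 to 4.17 against 0.0753 to 0.242. In the GFP-positive and GFP-negative libraries of auditory nerve these ratios were 2.24 and 4.95, 0.313 and 0.107, and 0.168 and 0.144. In lateral wall they were 0.00116 and 0.0742, 0.0256 and 0.0119, and 7.92e-05 and 0.0216. Dnm1 had 0 reads and Snap25 had 4 in the lateral wall GFP-positive library, so their ratios there depend on the 1 added. For other pairs the whole-cochlea ranges overlapped. Syt2 to Syt1 was 0.698 to 3.89 against 0.073 to 0.742, with 5 of 6 GFP-positive libraries above all GFP-negative ones. Syn1 to Syn2, Rab3a to Rab3c, Sv2b to Sv2c and Slc17a6 to Slc17a7 also overlapped.

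**Figure D3:**
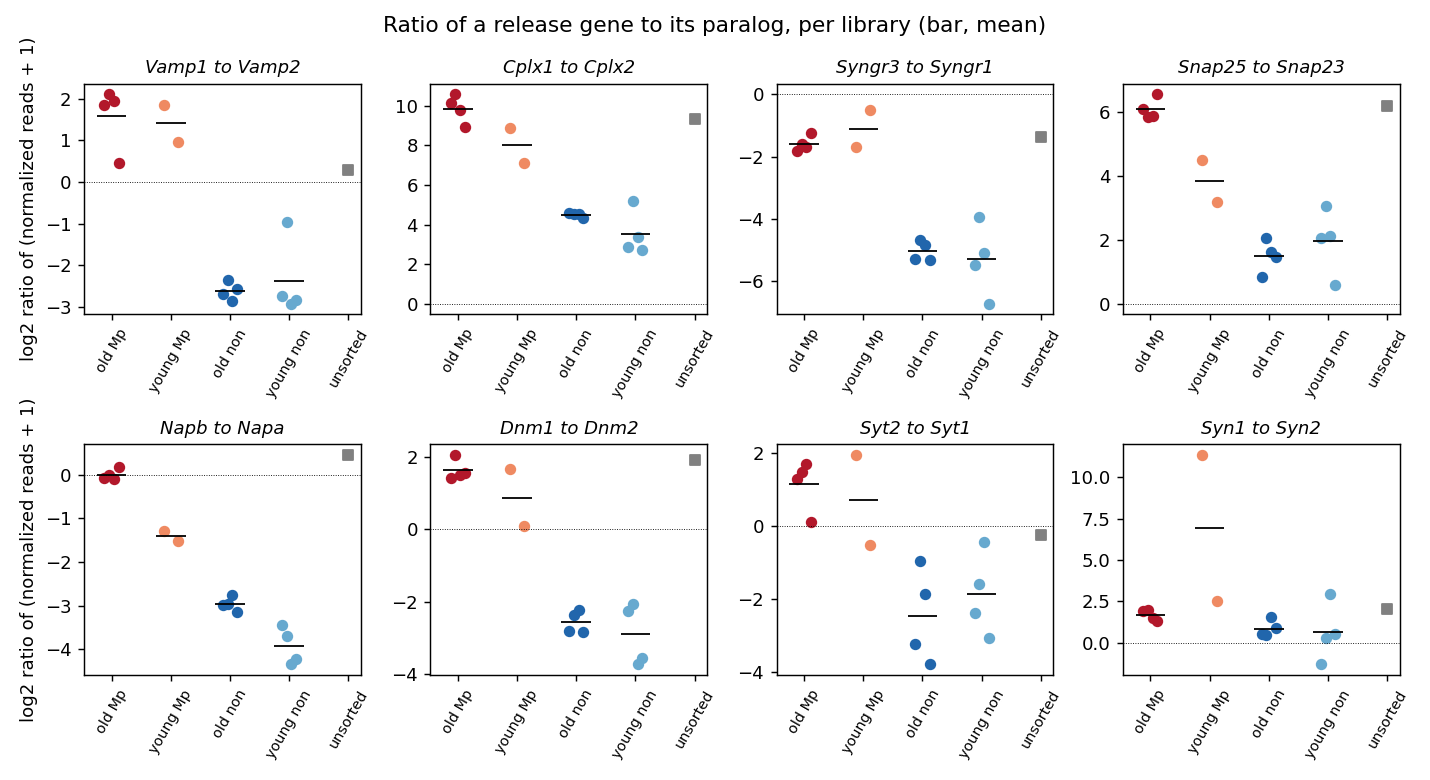
Log2 ratio of (normalized reads + 1) of a release gene to a paralog in each whole-cochlea library, for old and young GFP-positive (Mp) and GFP-negative (non) libraries and the unsorted one, with bars at the group means. The first 6 pairs separate all 6 GFP-positive from all 8 GFP-negative libraries, and the Syt2 to Syt1 and Syn1 to Syn2 pairs do not.

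Of 37 tested neuronal release genes outside the 35, 12 were higher (32.4%) and 8 lower (21.6%) in GFP-positive libraries over both ages, against 13.6% and 25.7% of all genes. Their median log2 difference was 0.19. Among the smallest adjusted p-values upwards were those of Syt3 (log2 3.71 ± 0.34 SE) and Ppfia4 (a liprin scaffold, 4.44 ± 0.41). Downwards the smallest belonged to Sh3gl3 (endophilin A3, -7.39 ± 0.43), Rab3b (-3.83 ± 0.54) and Ppfia2 (-2.68 ± 0.45). For Ppfia2 the ages differed in direction, with a log2 difference of -6.69 in young cochlea (limma adjusted p = 8.32e-06) and of 1.32 in old cochlea (0.13). Sh3gl3 held 0 to 78.6 normalized reads in GFP-positive and 957 to 2131 in GFP-negative libraries, the reverse of its paralog Sh3gl2.

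Of 4 tested transporters for other transmitters, 0 were higher with limma and 2 were lower, Slc17a8 and the monoamine transporter Slc18a2 (log2 -2.38 ± 0.78 SE). Of 34 widely expressed fusion and retrieval genes, 10 were higher and 6 lower, with a median of 0.00. Snap47 (log2 1.58 ± 0.18 SE), Bin1 (1.69 ± 0.21) and Snap23 (1.24 ± 0.16) led those that were higher. Ppfia1 (-1.17 ± 0.24), Sypl (-0.86 ± 0.19) and Vamp5 (-1.08 ± 0.28) led those that were lower.

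The unsorted young cochlea, a single library without a test, held most release genes at levels near those of GFP-positive libraries. Its level was above all 4 young GFP-negative libraries in 29 of 35 genes, against 26.9% of all genes, and in 20 of the 20 genes that followed the sort. It was above both young GFP-positive libraries in 26 of 35, against 48.9%. Snap25 stood at 104016 normalized reads there, Cplx1 at 28870, Syp at 19842 and Dnm1 at 20423. The 35 genes together held 363217 normalized reads in the unsorted library, 340238 to 424049 in old and 222158 to 313613 in young GFP-positive libraries, and 36116 to 75778 in the 8 GFP-negative ones. The 18 macrophage markers did not share this order, with 62281 normalized reads in the unsorted library, 393474 to 1887464 in the 6 GFP-positive and 1497 to 9685 in the 8 GFP-negative ones.

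In the auditory nerve, the neural part of the cochlea, most release genes did not separate the 2 single libraries. Of 35 genes 9 were over 2-fold higher in the GFP-positive library, 7 were over 2-fold lower and 19 were within 2-fold. Over all 18441 genes tested 19.9% were higher, 32.1% were lower and 8856 genes were within 2-fold. The count within 2-fold was thus near that of all genes. Snap25 held 18339 normalized reads in the GFP-positive and 13534 in the GFP-negative library, Syp 3717 and 2032, Cplx1 4508 and 2717, and Rab3a 2237 and 2779. Slc17a7 held 11.6 and 288, and Syt11 held 4769 and 19699. The 35 genes together held 65679 and 68733. The summed macrophage markers were higher than in any other library, at 2443783 in the GFP-positive library, and the neuron list held 25174 and 26468.

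The lateral wall carries the stria vascularis and few nerve endings. There the 35 genes together held 14866 normalized reads in the GFP-positive and 39388 in the GFP-negative library. The latter sum, with Syt4 and Syngr1 as its largest parts, lay within the range of the whole-cochlea GFP-negative libraries. The mean log2 level of the 35 genes did not, at 5.88 against 8.39 to 8.64 (old) and 8.00 to 9.03 (young). The GFP-positive library was over 2-fold lower in 20 of 35 genes and over 2-fold higher in 5, against 27.0% and 16.2% of all genes. It had 14 of the 35 genes at 0, beside 4575 of all 18441 genes tested, where 3 reads would be 4.59 normalized reads. Dnm1, Syn1, Slc17a7, Syt2 and Amph were among the 14. Snap25 held 6.13 normalized reads there and 174 in the GFP-negative library. The macrophage markers held 1319126 and the neuron list 2100 in the GFP-positive library. The highest of the 35 genes in it were Nsf (4645), Syngr1 (3478), Syt11 (2443) and Syt4 (1924). Syt4 stood at 16649 and Syngr1 at 12045 in the lateral wall GFP-negative library, and for Syt4 this was its highest level in the 19 libraries.

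**Figure D4:**
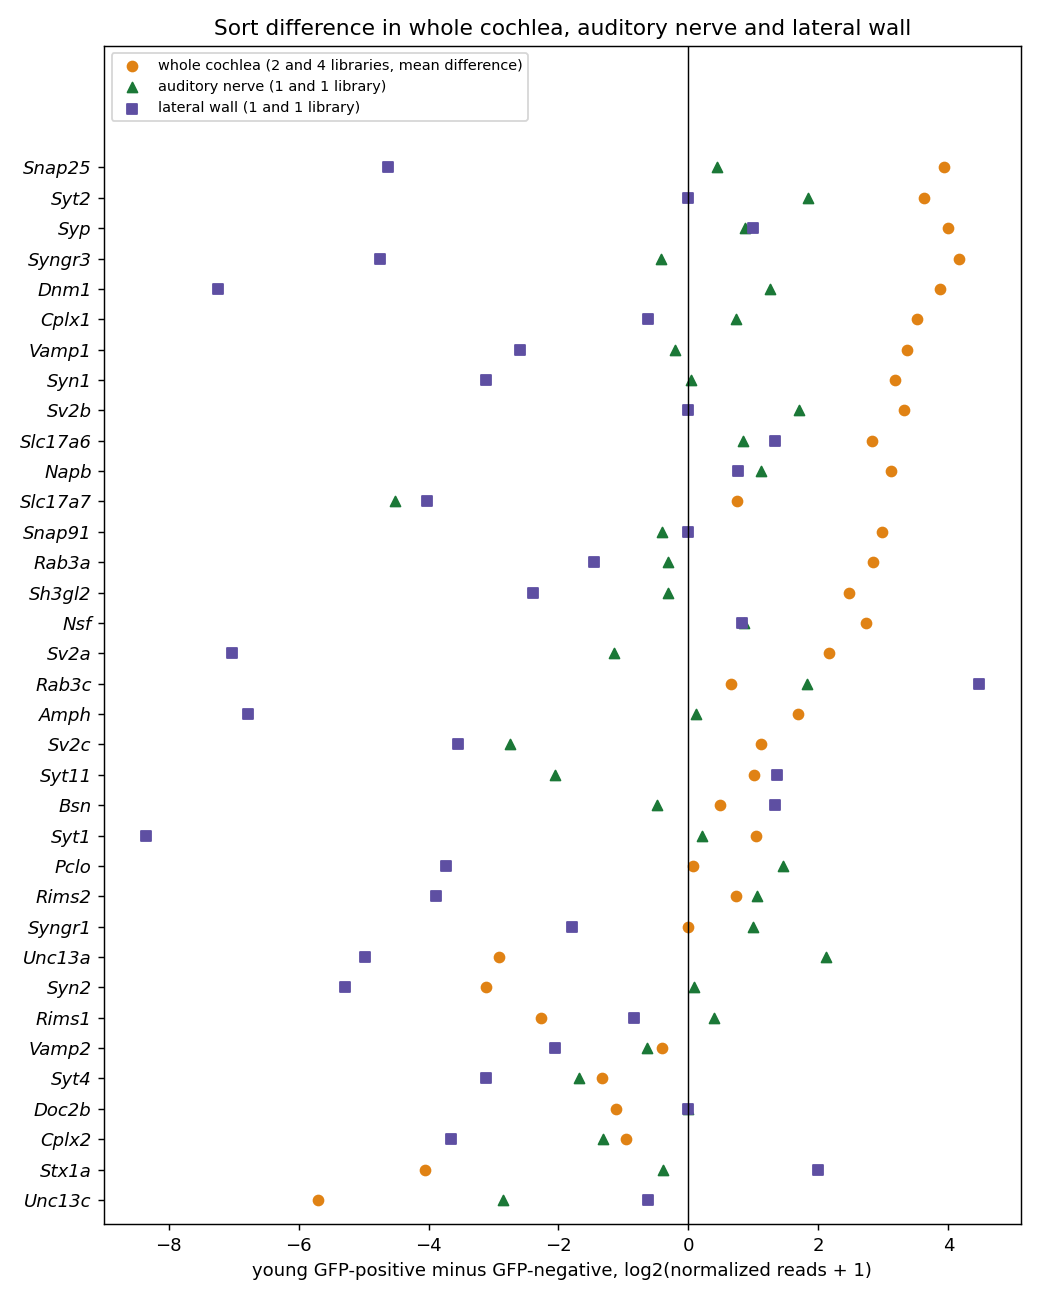
Difference between GFP-positive and GFP-negative young libraries in log2(normalized reads + 1), as a mean difference for whole cochlea (circles, 2 against 4 libraries) and for the single libraries of auditory nerve (triangles) and lateral wall (squares). Genes are ordered by their whole-cochlea difference over both ages, a point at 0 can also mean no reads in both libraries, and most triangles lie near 0 while most squares lie to its left.

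Age was compared within each sort. Among GFP-positive libraries 8 of 35 genes were higher in old mice and 0 lower, against 24.1% and 5.57% of all genes. The median log2 difference was 0.88 in the 35 genes and 0.88 in all genes, and the count was near the background. With the auditory nerve and lateral wall libraries pooled with the young groups the medians were 3.42 and 0.72. In that fit 9 of the 35 genes were higher, beside 2648 of 18519 genes. No old library came from those tissues, so age and tissue cannot be told apart in it. For 0 genes lower, limma counted 0 at an unadjusted p under 0.05, edgeR called 0 and DESeq2 called 1 (Cplx2). With quantile normalization the median of all genes moved to -0.07. Depth differed with age, as given above, and 8 genes were again higher with reads thinned to 20 M. The marker lists shifted between the old and young GFP-positive libraries too. In limma, 11 of 16 Schwann cell and glia, 7 of 14 hair cell, 7 of 14 supporting cell, 4 of 10 fibroblast and 4 of 20 neuron markers were higher in old mice. Lower in old mice were 5 of 10 T and NK cell, 5 of 10 endothelial, 2 of 18 macrophage, 1 of 14 supporting cell and 1 of 10 fibroblast markers. The summed macrophage list held 393474 to 675848 normalized reads in old and 1713351 to 1887464 in young GFP-positive libraries, without overlap. Its 18 genes had a median log2 difference of -1.50. The summed Schwann cell and glia list held 166792 to 447210 normalized reads in old and 106462 to 106482 in young GFP-positive libraries, and the T and NK cell list 56.6 to 154 and 3142 to 10909. In the young libraries 10 to 12 of the 14 hair cell markers and 5 to 7 of the 14 supporting cell markers were at 0. Their part in the result was not tested. The 8 genes higher in old mice were Stx1a, Napb, Syt4, Slc17a7, Syn2, Rims1, Unc13a and Unc13c. With library quality weights 0 genes were higher with age, with edgeR and DESeq2 5 each, and with a common total 13.

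Stx1a, Unc13a, Unc13c, Syn2 and Rims1 had no reads in 1 or both of the young GFP-positive libraries. In GFP-positive libraries Unc13a (limma adjusted p = 0.00089) and Stx1a (0.017) were higher in old mice. Against 3 reads per young library, the old means were at least 66.2-fold and 21.5-fold higher. Levels also scattered in the young GFP-negative libraries, from 0 to 116 for Unc13a and from 0 to 203 for Stx1a. The limits cover counting error only, and the young GFP-positive libraries had reads in only 11652 and 13532 genes. Unc13c was higher by 5.57 ± 0.99 SE on the log2 scale (limma adjusted p = 0.0012), a call lost with quantile normalization (log2 1.82, adjusted p = 0.33). Napb rose by 1.06 ± 0.34 SE (limma adjusted p = 0.033) and Syt4 by 1.16 ± 0.32 SE (0.017), both from well-covered levels in all libraries. Snap25 did not pass (log2 0.52, 95% interval -0.71 to 1.74, limma adjusted p = 0.51), nor did Syp (0.32) or Cplx1 (0.28). Without young GFP-positive replicate 9 the limma calls of Syn2 (log2 6.33 with all libraries, 1.65 without) and Rims1 (4.62 and 1.09) were lost, and so were they with edgeR (2.72 and 2.16) and DESeq2 (2.64 and 2.08). The call of Stx1a was lost without replicate 9 as well, at an unmoved fitted log2 difference of 6.40 (limma adjusted p = 0.058). Slc17a7 (log2 4.47) lost its call without replicate 15 (log2 1.92) and with edgeR (3.14). Syt4's call was lost without young replicate 9 (log2 0.71, limma adjusted p = 0.18). That of Napb was lost without replicate 15 (log2 0.87) or any 1 of the 4 old GFP-positive libraries (log2 1.01 to 1.10), with limma adjusted p = 0.056 to 0.11.

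Among GFP-negative libraries limma called 0 of 35 genes higher and 0 lower with age, against 1.64% and 0.0813% of all genes. At an unadjusted p under 0.05 it counted 1 higher and 2 lower, edgeR called 0 and DESeq2 called 2 lower (Syngr1 and Slc17a6). Without young replicate 14, the one deeply sequenced young library, 7 genes were lower in old mice, with Snap25 at a log2 difference of -1.10 (limma adjusted p = 0.045). In that fit 1306 of 18377 genes were lower and 2256 higher, against 15 and 303 with all libraries.

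The sort difference itself differed between the ages for 1 of 35 genes, against 6.98% of all genes that were higher and 0.954% that were lower. This was Unc13c, whose sort difference was 4.76 ± 1.27 SE greater in old than in young cochlea on the log2 scale (limma adjusted p = 0.035), from -0.94 in old and -5.70 in young. The call did not hold with edgeR (0.066), quantile normalization (0.72), thinned reads (0.056) or a pseudocount of 10 (log2 2.77, limma adjusted p = 0.096), and it was lost without any 1 of the 8 old libraries or without young GFP-positive replicate 15 (adjusted p = 0.052 to 0.079). Unc13a (6.11, limma adjusted p = 0.055), Slc17a7 (5.33, 0.057) and Syt4 (1.38, 0.06) came next and did not pass. With a pseudocount of 10 Unc13a was the gene called instead (log2 4.10, limma adjusted p = 0.028). The difference of the sort difference was 1.10 for Snap25 (95% interval -0.48 to 2.69) and 0.21 for Syp (-1.35 to 1.76).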

How the data were processed

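The 19 RNA sequencing libraries each came from 1 mouse, and the labels assign all of them to a group. Per the labels' protocols, GFP sorted the cells, RNA of low quality was excluded and a second sequencing run was made for some samples. The submitters' processing notes name mm10, TopHat2, Partek and DESeq2, without versions. Counting and strand settings are not given in the sources used here, so reads of overlapping genes and close paralogs may be shared. In the deposited table each gene has 1 signal value in each library. It is the number of reads scaled by the library's size factor, as recovered from the steps between low values. Whole reads came back for 99.89% of values above 0, within 0.1 read. The authors' deposited p-value and fold columns, other values in that table, were not used.

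The 35 genes, lists and tests were chosen with earlier results of these data known. The main test was limma 3.58.1 in R 4.3.3 on log2(value + 1) with trend and robust variance, with 4 group means over all 14 libraries sorted from whole cochlea. The 18441 genes that reached 1 normalized read in 2 or more libraries were tested, and Benjamini-Hochberg adjusted p-values were called at 0.05. The design had planned this test for normalized values. In simulated data the test recovered 100% of 4-fold changes over both ages and in old cochlea. It recovered 88% in young cochlea and 86% with age in GFP-positive libraries. Of 2-fold changes it recovered 54%, 24%, 8% and 14% in the same order. It also called 11, 11, 13 and 25 genes that had not been changed. The simulated spread was 1 value for all genes, estimated from the old libraries alone. This check therefore does not cover the scatter between the young GFP-positive libraries. Changed genes were drawn only from those above a set mean level, so weakly expressed genes are not covered either. The sort difference over both ages is the mean of those in old and young cochlea. All 35 genes were named, and from each other list the 3 smallest adjusted p-values each way. Some genes that met this rule are not reported here. The paralogs Napa and Dnm2 were named after their values were seen. edgeR 4.0.16 and DESeq2 1.42.0 were run on the recovered reads.

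Gene lengths are the summed exons of GENCODE M21 for mm10, over all isoforms. A gene at 0 could have up to 3 reads, which is 1.38 to 5.33 normalized reads. These limits cover counting error only, since reads carry no molecular identifiers. Single libraries had no test. Other settings, listed with their effect in the closing section, covered scaling, filters, pseudocounts of 0.1 and 10, variance models, samples fitted and leaving out each library. Thinning to 20 M reads (M, mega) was chosen after seeing the data.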

Additional observations from a re-analysis of the deposited data

Results flagged for a closer look

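Each group of 4 libraries was checked for a library far from the rest, in 105 groups of 1 gene each, of which chance flags about 1 in 20. In old GFP-positive libraries Vamp2 was highest in replicate 17, at 10308 normalized reads against 5014 to 5352 in the others, with a gap of 0.909 of the group's range. Syt4 was lowest in old GFP-positive replicate 12, at 4951 against 6799 to 7187, with a gap of 0.851 of the range. Sv2b was lowest in young GFP-negative replicate 2, at 116 against 252 to 289, with a gap of 0.849 of the range.

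The sort difference of Unc13c differed between the ages by 4.76 on the log2 scale (limma interaction term, adjusted p = 0.035), lower in all 2 young GFP-positive than in all 4 young GFP-negative libraries and overlapping in old cochlea.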

How the results depend on the processing

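Filters on low values and pseudocounts of 0.1 or 10 kept every count of called genes within 1.5 times, though the 1 interaction call passed from Unc13c to Unc13a with a pseudocount of 10. Pooling the auditory nerve and lateral wall libraries with the young groups gave 7 genes higher and 1 lower over both ages, 7 higher in old cochlea, 1 higher in young cochlea and 0 in the interaction. In that fit the young log2 differences of Sv2a and Amph turned to -1.06 and -0.98. Library quality weights gave 0 lower over both ages, 3 lower in old cochlea, 0 higher and 0 lower in young cochlea, 0 higher with age in GFP-positive libraries and 0 in the interaction. Fitting only the groups compared gave 2 lower in old cochlea, 11 higher and 0 lower in young cochlea, and 5 higher and 1 lower with age in GFP-positive libraries. DESeq2 gave 4 lower over both ages, 1 lower in old cochlea, 5 higher and 1 lower with age in GFP-positive and 2 lower in GFP-negative libraries, and 5 in the interaction. edgeR gave 4 lower in young cochlea and 5 higher with age in GFP-positive libraries. Its 1 interaction call was Unc13a in place of Unc13c, as with thinned reads. A common total gave 13 higher with age in GFP-positive libraries and 4 in the interaction. Quantile normalization gave 1 lower over both ages, 1 lower in young cochlea, 1 lower with age in GFP-positive libraries and 0 in the interaction. It moved the median of all genes over both ages from -0.50 to -0.00 on the log2 scale, and the genes called from 2512 higher and 4732 lower to 3567 and 3766, with age in GFP-positive libraries from 4441 and 1027 to 2292 and 2277. The causes were not tested.

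Leaving out 1 library gave 20 to 24 higher and 1 to 5 lower over both ages, 20 to 25 higher and 0 lower in old cochlea, and 17 to 20 higher and 2 to 4 lower in young cochlea. With age it gave 6 to 10 higher and 0 to 1 lower in GFP-positive and 0 higher and 0 to 7 lower in GFP-negative libraries, and 0 to 5 in the interaction. Without young GFP-positive replicates 9 and 15 in turn, the log2 difference over both ages was 2.46 and -2.23 for Syn2 and 1.59 and -1.94 for Rims1, and the young difference of Rab3c was -1.96 and 3.27. In these fits the lone young GFP-positive library is assumed to vary like the other groups. The labels give every library a different replicate number, so they do not show whether any libraries came from the same mouse. No paired analysis was possible, and the tests treated the libraries as independent. The 2 young GFP-positive libraries set how finely young and age differences could be seen, and p-values measure only the spread between these mice.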
